A study of Mus musculus with 8 samples.

Results

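The WNT nuclear effectors and feedback targets are 10 genes, Lef1, Tcf7l1, Tcf7l2, Ctnnb1, Axin2, Nkd1, Notum, Znrf3, Tle1 and Sp5, out of 18194 genes measured. They were chosen by name, as genes that carry the WNT signal into the nucleus or that the signal switches on to limit itself. All 10 were measured, by 23 probe sets annotated to a single one of these symbols, and the brightest probe set over all arrays stood for each gene. RNA came from the mandibular arch, the embryonic tissue of the lower jaw, of C57BL/6J mouse embryos at embryonic day 11.5, with sex not determined. The control group was 4 Alk5 fl/fl arches without a named Cre driver, and the mutant group was 4 Alk5 fl/fl arches carrying Wnt1-Cre, so floxed Alk5 was shared by all 8. Alk5, the type I receptor for TGF-beta, stands on the arrays under its symbol Tgfbr1. Wnt1-Cre acts in the neural crest lineage, which forms most of the arch mesenchyme, whereas epithelium, muscle precursors, endothelium and blood keep an intact gene. Effects of the driver itself and of the deletion cannot be told apart in this design. The comparison asked how losing Alk5 in the crest changes the arch in which crest cells meet muscle precursors.

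In the canonical WNT pathway a ligand at the cell surface stops the destruction complex from degrading beta-catenin, which then enters the nucleus and joins DNA-binding proteins of the LEF/TCF family. Without beta-catenin these factors hold Groucho-type co-repressors on their targets. Several targets encode inhibitors that act on the ligand, the receptor or the destruction complex, so their RNA levels are commonly read as a sign of pathway activity. In the facial prominences WNT signalling passes between epithelium and crest mesenchyme and is known for its part in outgrowth.

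Array medians ran from 6.28 to 6.42 on the log2 scale, and mutant replicate 3 stood apart, with a lowest correlation with another array of 0.986 and a highest of 0.991, where the other arrays had highest correlations of 0.996 to 0.997. The brightest Tgfbr1 probe set averaged 12.79 ± 0.0844 in the 4 controls and 12.98 ± 0.0115 in the 4 mutants (SD), with every mutant above every control. Its dimmer probe sets also read higher in the mutants, by 0.51 and 0.30 on the log2 scale, with overlapping groups. None passed over all probe sets (limma adjusted p 0.299 to 0.594), and none showed a loss. The sources used here do not say whether these probe sets lie in the deleted part, so they do not check the labels. The 9 crest mesenchyme markers listed were all measured, with a mean log2 level of 10.77 to 11.13 on the 8 arrays. The labels do not say whether each sample came from a different embryo, so the p-values speak only of the scatter among these samples, which may be partly technical.

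Of the 10 genes, Lef1 and Tle1 fell in the mutants, 0 rose and 8 did not pass an adjusted p of 0.05 (limma, Benjamini-Hochberg over all genes). Lef1 was reduced to 55.3% of its control level and Tle1 to 65.2%. Over all genes 2.14% passed, of which 1.31% of genes were lower and 0.835% higher. At an unadjusted limma p under 0.05, 4 of the 10 passed, all lower (Lef1, Tcf7l2, Nkd1 and Tle1), beside 13.5% of all genes. Of the 18194 genes, 1628 were lower and 822 higher at this p. The median log2 fold change of the 10 was -0.20, with 7 below 0, beside a median of -0.01 over all genes, of which 52% were below 0. All of the 10 but Notum and Sp5 lay above the median level, and the genes above that level had a median of -0.05. The count was not stable to the choice of arrays: it was 0 without control replicate 2, control replicate 3 or mutant replicate 4, and 1 (Lef1) without control replicate 1, control replicate 4 or mutant replicate 2. In the same order, 0.599%, 0.572%, 0.594%, 0.83%, 2.8% and 1.86% of all genes passed, beside 2.14% with all arrays. Calls over all genes thus fell in these settings too, except without control replicate 4.

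**Figure D1:**
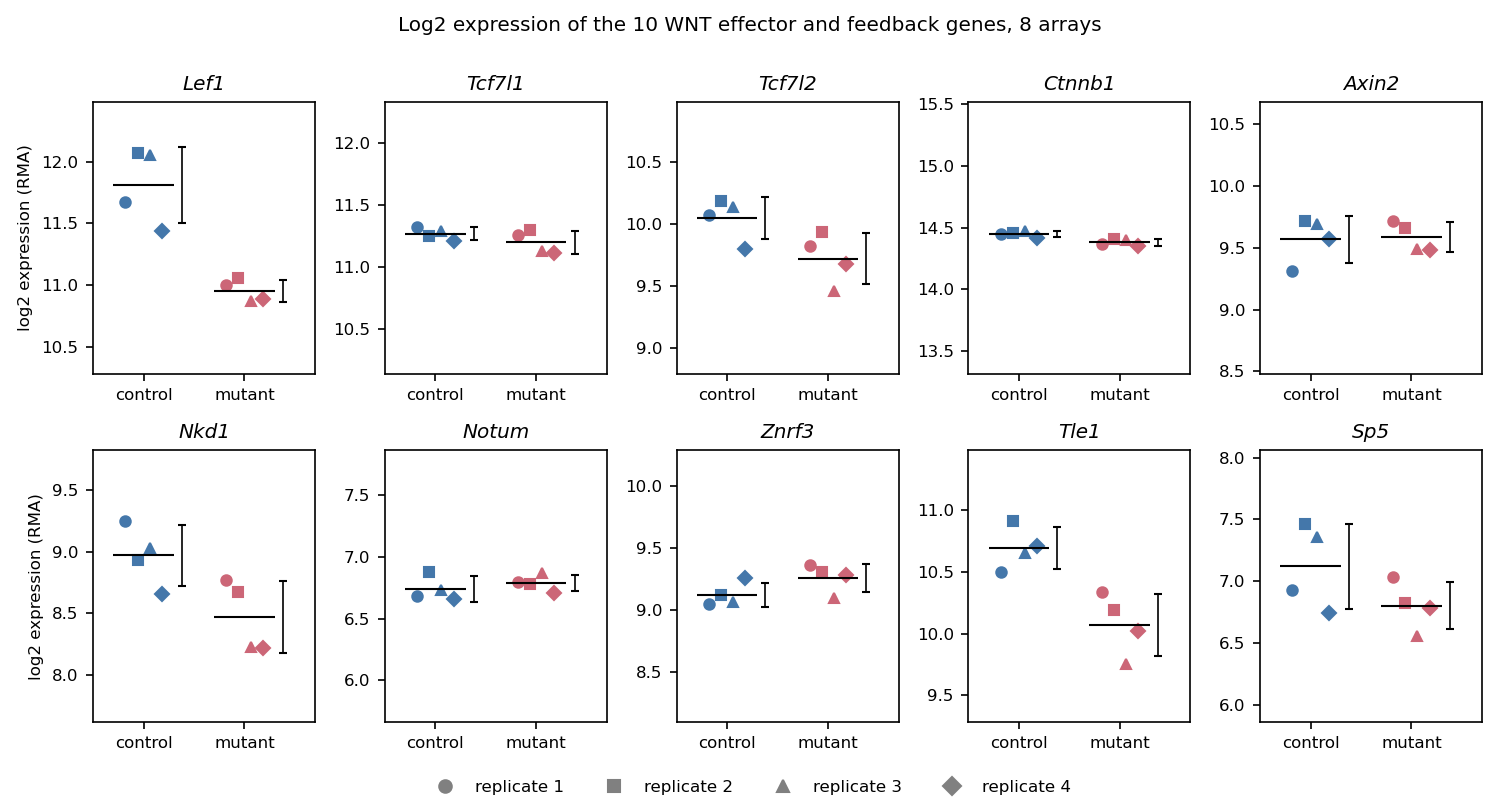
Log2 expression of each gene on the 8 arrays, with controls in blue and mutants in red. Marker shapes show the replicate number, by which the labels state no pairing. A line marks the group mean with a bar of 1 SD beside it, and every panel spans the same height on the log2 axis. The mutant arrays lie wholly below the controls for Lef1, Tle1 and, by a much smaller step, Ctnnb1, and the groups overlap for the other genes.

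Lef1 encodes the LEF/TCF protein best known as an activator of WNT targets and is itself a WNT target in many tissues. Its brightest probe set (1454734_at) read 11.67, 12.07, 12.05 and 11.44 in control replicates 1 to 4 and 11.00, 11.06, 10.87 and 10.89 in mutant replicates 1 to 4. The groups did not overlap, control replicate 4 was the lowest control, and the mutants lay within a narrow band. The log2 fold change was -0.85 ± 0.14 (SE), and its 95% interval ran from -1.17 to -0.54 (limma adjusted p = 0.0183). A dimmer probe set (1421299_a_at) moved alike, from 7.92 ± 0.343 to 7.03 ± 0.399 (SD, n = 4), a log2 fold change of -0.90, without overlap between the groups. Among all 34958 probe sets tested separately, of which 1.12% passed, the bright Lef1 probe set passed (limma adjusted p = 0.0242) and the dim one did not (limma adjusted p = 0.0967). The Lef1 call was lost without control replicate 2, control replicate 3 or mutant replicate 4 (limma adjusted p up to 0.0691 over the alternatives), with changes of -0.98 to -0.77 throughout. In the settings that lost it, calls over all genes fell from 390 to 109, 104 and 108, in the same order.

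The bases before the transcription starts of these genes were searched for words that LEF/TCF proteins are known to bind. The 4 words were CTTTG followed by AA, AT, TA or TT, sought on both strands of the 250 bases before each RefSeq start (build GRCm38.p6). Words on opposite strands can share their last bases, and each was then counted. RefSeq windows were matched for 8 of the 10 genes, 13 windows in all, of which 3 held a word, beside 14.8% of all 32851 windows. Of Lef1's 4 starts the most 3′ held 1 word (chr3:131156044-131156293, plus strand). Sp5 held 2 words (chr2:70474673-70474922, plus strand), as at least that many did in 1.43% of all windows. Axin2 (chr11:108920099-108920348, plus strand) and Tle1 (chr4:72200894-72201143, minus strand) held 0, and the remaining match was at the more 3′ of the 2 Tcf7l2 starts. Windows of the falling genes Lef1 and Tle1 and of the feedback targets Sp5 and Axin2 are shown, 5′ to 3′ on the gene's strand, with the words in capitals. For Lef1 only the window that held a word is shown, and its other windows held 0. A match is a description of the letters, not a bound site.
Lef1 (most 3′ start): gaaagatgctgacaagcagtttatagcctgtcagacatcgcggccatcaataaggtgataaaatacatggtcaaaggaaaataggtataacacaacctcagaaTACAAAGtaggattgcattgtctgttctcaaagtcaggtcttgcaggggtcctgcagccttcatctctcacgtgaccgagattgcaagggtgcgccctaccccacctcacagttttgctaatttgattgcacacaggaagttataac
Sp5: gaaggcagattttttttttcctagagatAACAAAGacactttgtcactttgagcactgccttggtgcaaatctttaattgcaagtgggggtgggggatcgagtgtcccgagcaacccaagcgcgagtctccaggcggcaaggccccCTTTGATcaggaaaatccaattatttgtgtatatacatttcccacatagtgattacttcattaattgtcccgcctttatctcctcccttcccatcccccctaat
Axin2: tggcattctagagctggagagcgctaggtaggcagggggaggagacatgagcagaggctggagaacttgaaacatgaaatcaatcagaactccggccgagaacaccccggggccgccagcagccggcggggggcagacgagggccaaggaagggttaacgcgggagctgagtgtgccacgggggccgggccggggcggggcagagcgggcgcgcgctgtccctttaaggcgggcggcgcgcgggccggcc
Tle1: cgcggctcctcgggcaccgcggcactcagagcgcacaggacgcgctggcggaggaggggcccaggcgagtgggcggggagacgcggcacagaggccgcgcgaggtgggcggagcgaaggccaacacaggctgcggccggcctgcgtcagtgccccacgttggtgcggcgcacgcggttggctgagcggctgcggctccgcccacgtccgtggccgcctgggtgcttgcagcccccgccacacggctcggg

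Tcf7l1 encodes the family member known mainly as a repressor of WNT targets. It read 11.32, 11.25, 11.29 and 11.21 in the controls and 11.26, 11.30, 11.13 and 11.11 in the mutants. The groups overlapped, with mutant replicates 3 and 4 lowest. Its log2 fold change was -0.07, with an interval of -0.23 to 0.09 that leaves out a change as large as that of Lef1, and its other probe set differed by -0.09.

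Tcf7l2, which can activate or repress depending on its isoform and partners, read 10.07, 10.19, 10.14 and 9.80 in the controls and 9.82, 9.94, 9.46 and 9.68 in the mutants. Control replicate 4 fell among the mutants, and the groups overlapped. Its log2 fold change was -0.33 ± 0.122 (SE; 95% interval -0.60 to -0.05, limma adjusted p = 0.27). Its other 3 probe sets lay at -0.19, -0.09 and -0.16, so all 4 were below 0 and none passed over all probe sets. Tcf7, the remaining family member, was not analysed here.

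The changes of these 3 LEF/TCF genes were set against each other within each array. The log2 value of Lef1 minus that of Tcf7l1 was 0.23 to 0.82 in controls and -0.27 to -0.22 in mutants, a difference of change of -0.79. Lef1 minus Tcf7l2 was 1.60 to 1.92 in controls and 1.11 to 1.41 in mutants, a difference of change of -0.53. Each gave p = 0.0286 in a two-sided exact permutation test, which cannot go lower with 70 relabelings, or 0.0429 after Benjamini-Hochberg adjustment over the 3 pairs. Lef1 was already known to fall when the pairs were set, so these p-values are no independent evidence and the differences are given as a description of size. Tcf7l1 minus Tcf7l2 differed by 0.26 (exact permutation p = 0.0571, the same after adjustment), and by 0.11 over the mean of probe sets (exact permutation p = 0.0857). Without single arrays it differed by 0.19 to 0.32, with exact permutation p from 0.0286 to 0.114. That p was under 0.05 only without control replicate 4, and fewer relabelings exist once an array is left out.

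Ctnnb1 encodes beta-catenin, whose activity in this pathway is set mainly by protein stability. It read 14.45, 14.46, 14.47 and 14.42 in the controls and 14.37, 14.41, 14.40 and 14.35 in the mutants. All mutants lay below all controls, as in 7.02% of all genes, but the step was -0.07 on the log2 scale (95% interval -0.20 to 0.07, limma adjusted p = 0.693). The two-sided exact permutation test gave p = 0.0286, unadjusted, which any full separation of 4 and 4 arrays gives. The spread of Ctnnb1 within a group was 0.0229 and 0.0276 (SD). The other 2 probe sets differed by -0.13 and -0.06 with overlapping groups.

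Tle1 encodes a Groucho-type co-repressor that LEF/TCF proteins recruit. Its brightest probe set (1422751_at) read 10.50, 10.91, 10.65 and 10.71 in the controls and 10.34, 10.19, 9.75 and 10.02 in the mutants. Every mutant was below every control, and mutant replicate 3 was the lowest. The log2 fold change was -0.62 ± 0.133 (SE; 95% interval -0.92 to -0.32), with an adjusted p just under the threshold (limma adjusted p = 0.0492). Among all 34958 probe sets tested separately, this probe set did not pass (limma adjusted p = 0.0661). The second probe set (1434033_at) did not follow: it read 9.31, 9.32, 9.37 and 9.39 in the controls and 9.33, 9.26, 8.97 and 9.36 in the mutants, a log2 fold change of -0.12 with overlapping groups. Over the mean of both probe sets the change was -0.37 (limma adjusted p = 0.125), and with the replicate number as a block it kept its size at -0.62 but did not pass (limma adjusted p = 0.0771). The fall of Tle1 is thus the reading of a single probe set. Its call was also lost with arrays centred on their medians and without any array but mutant replicates 1 and 3 (limma adjusted p 0.0168 to 0.167 over the alternatives).

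**Figure D2:**
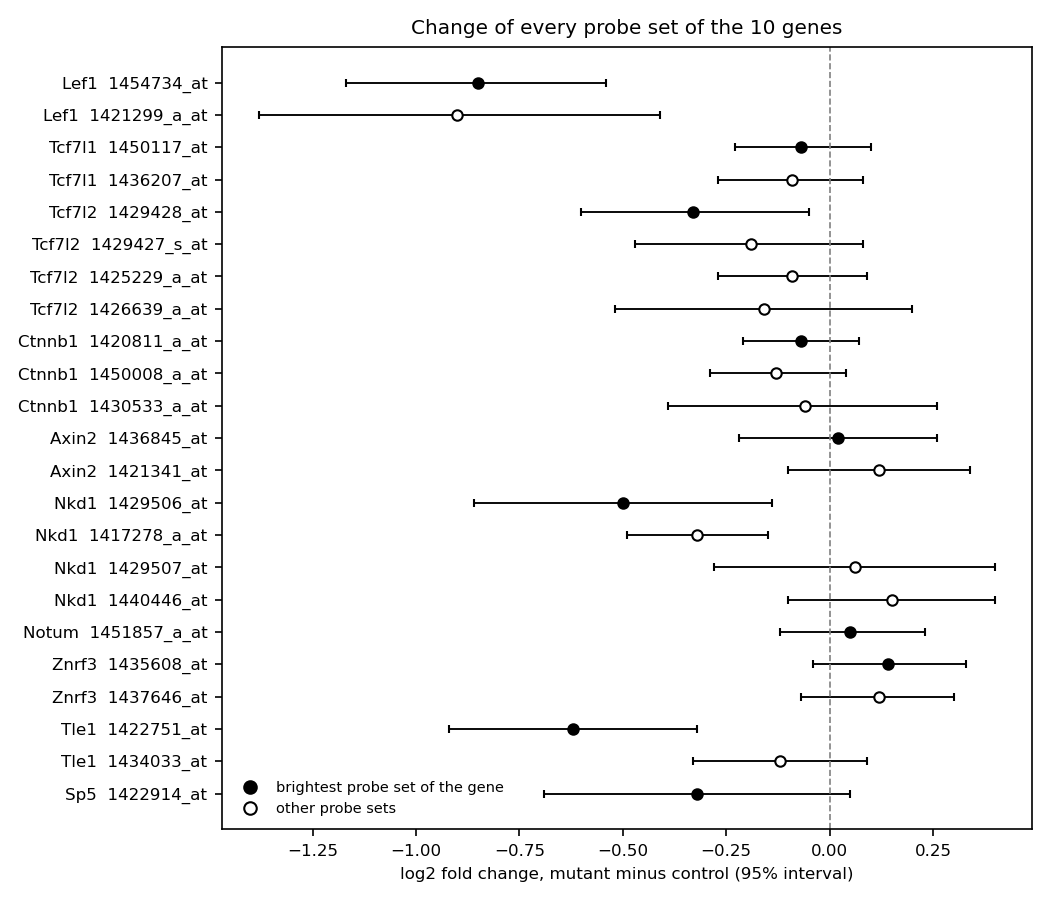
Log2 fold change, mutant minus control, with its 95% interval, for each of the 23 probe sets; filled points stand for their gene. The 2 Lef1 probe sets lie together near -0.85 and -0.90, whereas those of Tle1 (-0.62 and -0.12) and of Nkd1 (-0.50, -0.32, 0.06 and 0.15) lie apart.

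Axin2, a scaffold of the destruction complex and the most widely used transcriptional readout of beta-catenin activity, did not move with Lef1. It read 9.31, 9.72, 9.69 and 9.57 in the controls and 9.72, 9.66, 9.49 and 9.48 in the mutants. The lowest value was a control, the highest, 9.72, was reached in each group, and all mutants lay within the control range. The log2 fold change was 0.02, and its 95% interval ran from -0.22 to 0.25 (limma adjusted p = 0.963), and its sign turned when the arrays were centred on their medians (-0.01) or single arrays were left out. A dim second probe set differed by 0.12.

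Nkd1, which binds Dishevelled and dampens the signal, had the largest change among the feedback genes without passing. Its brightest probe set (1429506_at) read 9.25, 8.93, 9.03 and 8.66 in the controls and 8.77, 8.67, 8.23 and 8.22 in the mutants. Control replicate 4 lay within the mutant range. The change was -0.50 ± 0.161 (SE; 95% interval -0.86 to -0.14, limma adjusted p = 0.188). A dimmer probe set (1417278_a_at) separated the groups, at 7.57, 7.50, 7.51 and 7.47 in the controls and 7.12, 7.36, 7.18 and 7.12 in the mutants, a change of -0.32 (limma adjusted p = 0.0978 over all probe sets). The 2 dimmest probe sets differed by 0.06 and 0.15 the other way, and over the mean of all 4 the change was -0.15.

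Sp5, a zinc finger factor induced directly by beta-catenin in many settings, read 6.93, 7.46, 7.36 and 6.74 in the controls and 7.03, 6.82, 6.56 and 6.78 in the mutants. Control replicates 2 and 3 stood above all mutants, while control replicates 1 and 4 lay among them. The log2 fold change was -0.32 (95% interval -0.69 to 0.05, limma adjusted p = 0.452).

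Notum and Znrf3 act outside the cell or at its surface: Notum is a secreted enzyme that removes the lipid from WNT proteins, and Znrf3 a transmembrane ubiquitin ligase that clears Frizzled receptors. Notum read 6.68, 6.88, 6.73 and 6.66 in the controls and 6.80, 6.78, 6.87 and 6.71 in the mutants, a change of 0.05 with an interval of -0.12 to 0.22. Its level lay below the median gene of these arrays (7.63). Znrf3 read 9.05, 9.12, 9.06 and 9.26 in the controls and 9.36, 9.31, 9.10 and 9.28 in the mutants. Of its mutant values 3 lay above every control and 1 among them, and the change was 0.14 (95% interval -0.04 to 0.33, limma adjusted p = 0.515). The 2 Znrf3 probe sets were both above 0, at 0.14 and 0.12.

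Control replicate 4 was the lowest control in 7 of the 10, compared with 27.7% of all genes. Mutant replicate 4 was the lowest mutant in 5, compared with 11.2% of all genes. Its margin below the next mutant was small: 8.22 beside 8.23 for Nkd1, 9.48 beside 9.49 for Axin2 and 11.11 beside 11.13 for Tcf7l1. It was 14.35 beside 14.37 for Ctnnb1 and 6.71 beside 6.78 for Notum. Mutant replicate 3 was the lowest in the other 5, which is the share it had over all genes (51.2%). Without control replicate 4 the change of Lef1 was -0.98, and without mutant replicate 3 it was -0.83.

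The other pathway genes were listed by role. Outside the 10, 64 were measured: 3 (4.69%) were called lower and 0 higher, and 61 missed the threshold. Over all genes 1.31% were called lower and 0.835% higher. Of the 64, 45 (70.3%) were below 0, beside 52% of all genes. Most of the 64 lay above the median level, where the median change over genes was -0.05. At an unadjusted limma p under 0.05, 16 were lower and 3 higher (29.7%), beside 13.5% of all genes. Of the 18194 genes, 1628 were lower and 822 higher at this p. Without control replicate 1, 2 or 3, or without mutant replicate 4, 0 of the 64 passed. In the same order, 0.83%, 0.599%, 0.572% and 0.594% of all genes passed there, beside 2.14% with all arrays. The lists and the 10 genes were set with earlier results of these data known.

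Among 12 TCF co-factors, which include the other Groucho-type genes and the Bcl9 and Pygopus families that help beta-catenin activate transcription, the median was -0.10, 11 missed the threshold and 1 fell. The fall was Tle2, a relative of Tle1. It read 7.79, 7.83, 7.98 and 7.57 in the controls and 7.30, 7.31, 7.08 and 7.12 in the mutants, without overlap, a change of -0.59 ± 0.101 (SE; limma adjusted p = 0.021). Tle3 (-0.01), Tle4 (-0.10), Tle5 (-0.18) and Tle6 (-0.27) did not pass. At an unadjusted limma p under 0.05, 3 of the 12 were lower and 0 higher.

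None of the 16 genes of the destruction complex and its regulators passed, at a median of -0.08 and changes between -0.26 and 0.10 (2 of the 16 had an unadjusted limma p under 0.05). The 17 receptors had a median of -0.12; 16 missed the threshold and 1 fell (4 lower and 1 higher at an unadjusted limma p under 0.05). This was Ror2, a receptor for Wnt5a, which read 9.82, 9.86, 9.91 and 9.81 in the controls and 9.52, 9.58, 9.22 and 9.36 in the mutants. The change was -0.43 ± 0.0878 (SE; limma adjusted p = 0.0414), and it was -0.22 and did not pass over the mean of its probe sets (limma adjusted p = 0.0996). Its call was also lost with the replicate block, with arrays centred on their medians and without any array but mutant replicates 2 and 3 (up to 0.162).

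Among 19 other genes known as WNT targets, the median was -0.08, 18 missed the threshold and 1 fell (7 lower and 2 higher at an unadjusted limma p under 0.05). Lgr5, a receptor for R-spondins, fell by 1.34 ± 0.276 on the log2 scale (SE; limma adjusted p = 0.0419), from 8.97, 9.09, 9.17 and 8.01 in the controls to 7.81, 7.84, 7.25 and 6.99 in the mutants. Control replicate 4 lay far nearer the mutants than the other controls did. Over the mean of its probe sets the change of Lgr5 was -0.65 and did not pass (limma adjusted p = 0.0958). The call was also lost without any array but control replicate 4 and mutant replicate 2 (up to 0.153). Dkk4, a secreted antagonist, differed by 1.03, with controls between 6.08 and 6.52. Mutant replicate 3 read 6.32, while the other mutants read 7.91, 7.23 and 8.01. Without mutant replicate 3 or with array weights Dkk4 passed. The other pathway genes that passed there were all below 0 with all arrays. With all arrays weighted alike Dkk4 did not pass (limma adjusted p = 0.179). The secreted WNT inhibitor gene Wif1 (-0.78), Prickle1 (-0.46), Tnfrsf19 (-0.42), the membrane inhibitor gene Apcdd1 (-0.40) and Nkd2 (-0.33) did not pass either, with unadjusted limma p-values of 0.00611, 0.00248, 0.00563, 0.00209 and 0.0305. The cell cycle gene Ccnd1 (-0.04), Myc (0.10) and the antagonist gene Dkk1 (0.01) lay nearer 0.

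**Figure D3:**
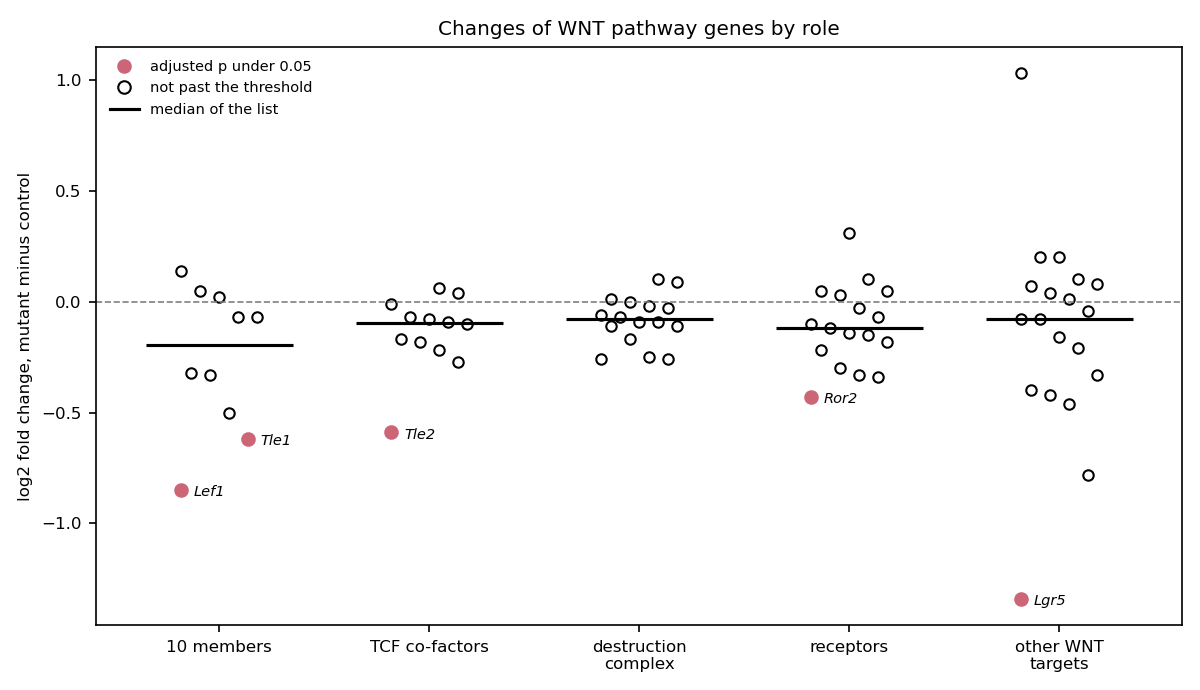
Log2 fold change, mutant minus control, of each gene in the 10-gene set and in 4 lists by role, with genes at a limma adjusted p under 0.05 filled in red and named and the list's median as a bar. The genes that passed (Lef1, Tle1, Tle2, Ror2 and Lgr5) all lie below 0, and list medians lie between -0.20 and -0.08.

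The genes whose profiles over the 8 arrays were most like Lef1, by the root mean square difference of profiles centred on their own means, were Cdo1 (0.0759 on the log2 scale), a cysteine dioxygenase gene, Sfrp2 (0.0858), a secreted WNT-binding protein gene, and Thy1 (0.0983), a cell surface glycoprotein gene. Those most like Tle1 were C630043F03Rik (0.0789), Mllt3 (0.0847), a transcription elongation gene, and Net1 (0.0951), a RhoA exchange factor gene. These 6 were picked for their likeness, so their own changes, -0.92, -0.83 and -0.87 for the first 3 and -0.71, -0.64 and -0.67 for the others, are a description.

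**Figure D4:**
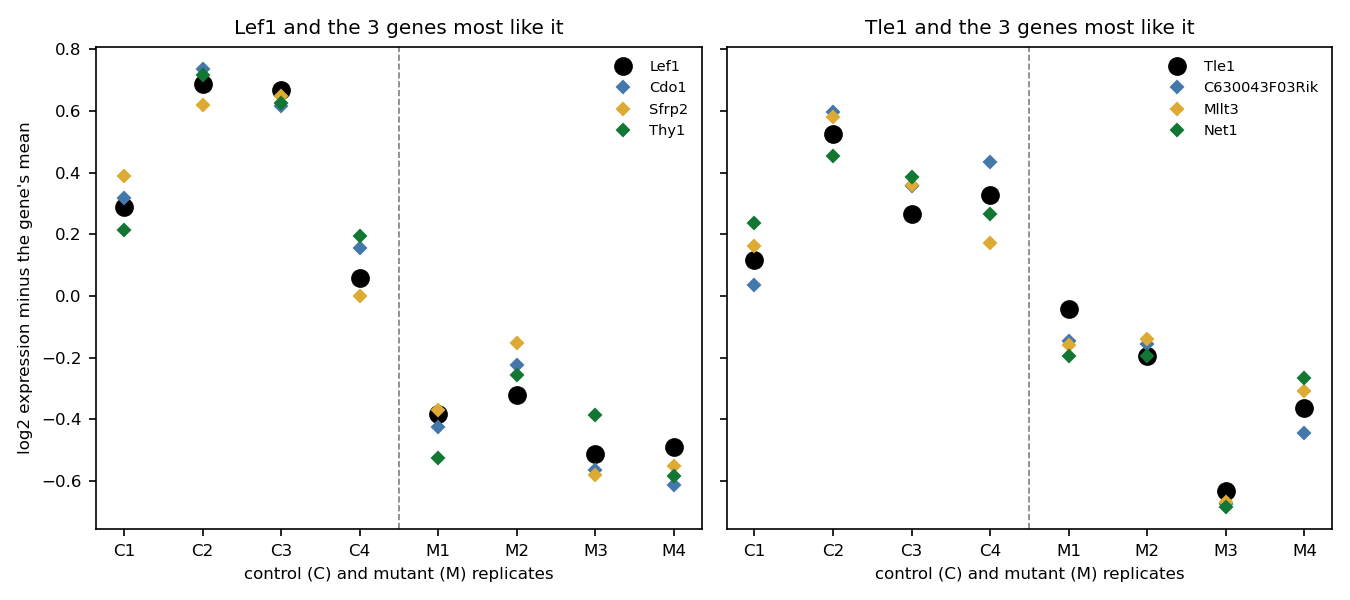
Log2 expression minus each gene's mean over the 8 arrays, for Lef1 (left) and Tle1 (right) as black circles and the 3 genes most like each as coloured diamonds, by control (C) and mutant (M) replicate. In the Lef1 panel control replicate 4 is the lowest control for Lef1 and each like gene; in the Tle1 panel mutant replicate 3 is the lowest array throughout.

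In bulk tissue, fewer cells of a type and less RNA per cell cannot be told apart. Of 9 crest mesenchyme markers, 8 were below 0 and 0 passed (5 lower and 1 higher at an unadjusted limma p under 0.05), with a median of -0.24; their summed linear level was 32100 to 36500 in controls and 26900 to 29600 in mutants. Of 10 surface epithelium markers, 8 were below 0 and 0 passed (1 lower at the unadjusted p), with a median of -0.20 and summed levels of 7850 to 10300 and 5370 to 9010. Of 10 macrophage markers 7 rose, with a median of 1.16 and summed levels of 1890 to 2070 and 3600 to 5010. Of 6 neuronal and glial markers 2 fell (3 lower at the unadjusted p), with a median of -0.32 and summed levels of 1320 to 1900 and 973 to 1190. The larger of these falls was Tubb3, a neuronal tubulin gene, which read 8.86, 9.23, 9.09 and 8.08 in the controls and 7.44, 7.41, 6.75 and 7.01 in the mutants. As for Lgr5, control replicate 4 was its lowest control and mutant replicates 3 and 4 its lowest mutants. The part of these shifts in the falls of Lef1, Tle1, Tle2, Ror2 and Lgr5 was not tested. The medians of endothelial (-0.01), erythroid (-0.11) and myogenic (0.03) markers lay nearer 0, with 0 called in each (1, 2 and 0 at the unadjusted p).

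**Figure D5:**
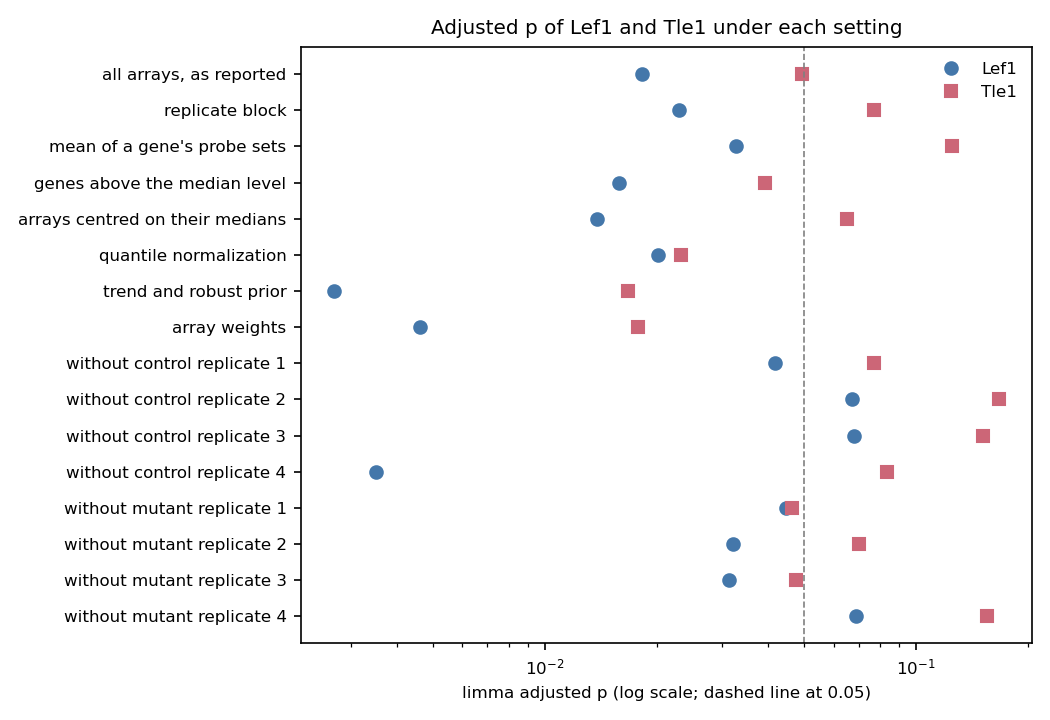
Limma adjusted p of Lef1 and Tle1 on a log axis, with all arrays and under each of 15 alternatives, and a dashed line at the threshold of 0.05. Lef1 passed in 12 of the 15 and Tle1 in 6 of the 15.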

How the data were processed

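The deposited log2 expression values of 45101 probe sets on 8 arrays (4 per group) were used as they are; per the submitters' processing notes the authors made them with RMA, which corrects background, equalizes arrays and summarizes probes, and which can compress changes of dim probe sets. Per the labels' protocols, total RNA was labelled with biotin by the Affymetrix procedure. Platform annotation gave 34958 probe sets 1 symbol, 932 several and 9211 none, and the latter kinds were not named; 34754 matched RefSeq by Entrez identifier and 0 changed name. The brightest probe set stood for each of 18194 genes. The groups were compared with limma 3.58.1 (R 4.3.3), without covariates, with Benjamini-Hochberg adjustment over all genes; errors are the SD among a group's arrays or the fit's SE, as named. Single values were also tested by two-sided exact permutation.

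The members, lists, named genes and alternatives were chosen with earlier results of these data known. The genes named were the 10 members, up to 8 of each list past the threshold, the 3 genes most like each member that passed, and Tgfbr1; list members that did not pass were named after their values were seen. Tested on simulated arrays (10 runs, 18194 genes, 200 changed), the fit recovered 49.4% of changes of 0.5, 89% of those of 1 and 99.8% of those of 2 on the log2 scale, with 5.65% of calls false. The rate of recovery or of false calls on the deposited arrays, where mutant replicate 3 stood apart, was not tested. The number of arrays limits the precision. Scanner files were not used here.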

Additional observations from a re-analysis of the deposited data

Results flagged for a closer look

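For Lgr5, control replicate 4 read 8.01 while the other controls read 8.97 to 9.17, a gap of 0.831 of the group's range, just past Dixon's 95% limit for 4 values. It was the single such array among 26 groups of 4 arrays, the controls and the mutants of 13 genes, and chance alone flags about 1 in 20 groups. Without that array the change of Lgr5 was -1.60 (limma adjusted p = 0.00477).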

How the results depend on the processing

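Leaving out 1 array at a time gave 104 to 618 genes past the threshold (390 with all arrays), 0 to 2 of the 10 WNT effector and feedback genes (2 with all), and 0 to 5 of the other pathway genes (3 with all). The count of the 10 was 1 with the replicate block, with probe sets of a gene averaged and with arrays centred on their medians; in each case it was Lef1. The labels state no pairing of samples by number. Deviations of same-numbered arrays correlated across genes at 0.03, 0.00, -0.12 and 0.41, which does not settle whether any were paired. The block gave 293 genes. Quantile normalization gave 620 genes and array weights 1356, with a weight of 0.108 for mutant replicate 3, and an adjusted p under 0.10 gave 664. The other pathway genes then numbered 1 over the mean of probe sets, 5 with a trend and robust prior, 9 with array weights and 5 at an adjusted p under 0.10. Of the genes called, 61% were lower, or 70.1% without control replicate 4 and 37% without mutant replicate 4. Axin2 reversed to -0.01 with centred arrays and ranged from -0.07 to 0.07 without single arrays. The difference of change between Lef1 and Tcf7l1 ranged from -0.89 to -0.69 without single arrays, that between Lef1 and Tcf7l2 from -0.59 to -0.48, and that between Tcf7l1 and Tcf7l2 from 0.19 to 0.32. Notum and Sp5 gave no value over genes above the median level. The causes were not tested.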
